A study of Mus musculus with 16 samples.

Results

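A set of 9 genes of astrocyte endfeet, gap junctions and glutamate uptake was followed through cortex and thalamus of mice with a Pdgfb retention allele. They were taken from the deposited table by symbol, through the Ensembl identifier of each row, and made up 9 of its 21804 genes. They were Aqp4, Kcnj10, Dag1 and Mlc1 of the endfoot, Gja1 and Gjb6 of astrocyte gap junctions, and Slc1a2, Slc1a3 and Glul of glutamate uptake and glutamine synthesis. All 9 are protein-coding, on chromosomes 18, 1, 9, 15, 10, 14, 2, 15 and 1 in that order, in GENCODE M21 on GRCm38. The study sequenced polyA-selected RNA of 16 libraries from 8 C57BL/6 mice aged 4 months, 4 with 1 copy of the allele (ret/wt) and 4 with 2 copies (ret/ret). Every mouse gave 1 cortex and 1 thalamus library, which gave 4 groups of 4: the cortex and the thalamus of either genotype. All 16 libraries thus carried the retention allele, and the ret/wt mice served as the controls. The allele lacks the stretch of PDGF-B that keeps this growth factor at the vessel wall, and pericyte coverage of brain vessels is low when both copies are changed. Per the labels, vessel calcifications formed in the ret/ret thalamus, where they were dissected by their autofluorescence, and in no other group. In the thalamus the genotype and this way of dissection therefore cannot be told apart. Within ret/ret animals the region, the calcifications and this way of dissection cannot be told apart either. The same limit holds where the genotype difference is compared between regions.

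Astrocytes wrap brain vessels with endfeet. The water channel encoded by Aqp4 and the potassium channel Kir4.1, encoded by Kcnj10, are concentrated in the endfoot membrane, where dystroglycan (Dag1) ties a dystrophin complex to the laminin of the vessel's basement membrane. The membrane protein encoded by Mlc1 sits at contacts between endfeet and takes part in volume regulation. Gja1 and Gjb6 encode the main connexins that couple astrocytes to each other. Slc1a2 (GLT-1) and Slc1a3 (GLAST) encode the astrocyte transporters that clear glutamate from synapses, and Glul encodes glutamine synthetase, which turns that glutamate into glutamine.

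The clearest pattern among the 9 genes ran between the brain regions. Kcnj10 was higher in thalamus than in cortex in both genotypes, 3.07-fold in ret/wt and 2.45-fold in ret/ret animals. Slc1a3 was lower in thalamus in both, by 2.27-fold and 2.35-fold. Slc1a2 was lower in thalamus by 2.21-fold in ret/ret animals, and by 1.95-fold in ret/wt animals, where it did not pass the test. Gjb6 was higher by 1.59-fold in ret/wt animals, and by 1.15-fold in ret/ret animals, where it did not pass. For neither gene was this regional difference shown to differ between genotypes. The Slc1a2 result in ret/ret held in 10 of 15 alternative settings, and the Gjb6 result in ret/wt in 4 of 15. Between the genotypes, 0 of the 9 genes passed the test in thalamus, beside 0% of all genes tested, and 0 in cortex, beside 0.0210%.

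Before the results, the libraries were checked for what else they held. Totals were 13415391 to 29135064 counts per library, and each of the 9 genes had between 796 and 120842 counts in every library. The 24 astrocyte identity markers were all present in every group, with a summed level of 4146 to 7050 CPM (counts scaled to a common library total across all 16 libraries) in cortex and 6559 to 12768 CPM in thalamus. A list of 10 genes, meant for the cerebellum and Bergmann glia, summed to 1905 CPM in ret/wt cortex replicate 3 and 4692 CPM in ret/ret cortex replicate 2. The other 6 cortex libraries held 27.7 to 93.2 CPM of that list, and the thalamus libraries 206.7 to 503.6 CPM. Whether the thalamus itself makes genes of that list was not tested. A list of 10 choroid plexus genes summed to 1169 CPM in ret/wt cortex replicate 4 and to 96.2 CPM or less in the other libraries. Values without both animals of the first 2 of these libraries are given below beside the results that they moved most. In bulk tissue, fewer astrocytes and less RNA per astrocyte cannot be told apart.

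**Figure D1:**
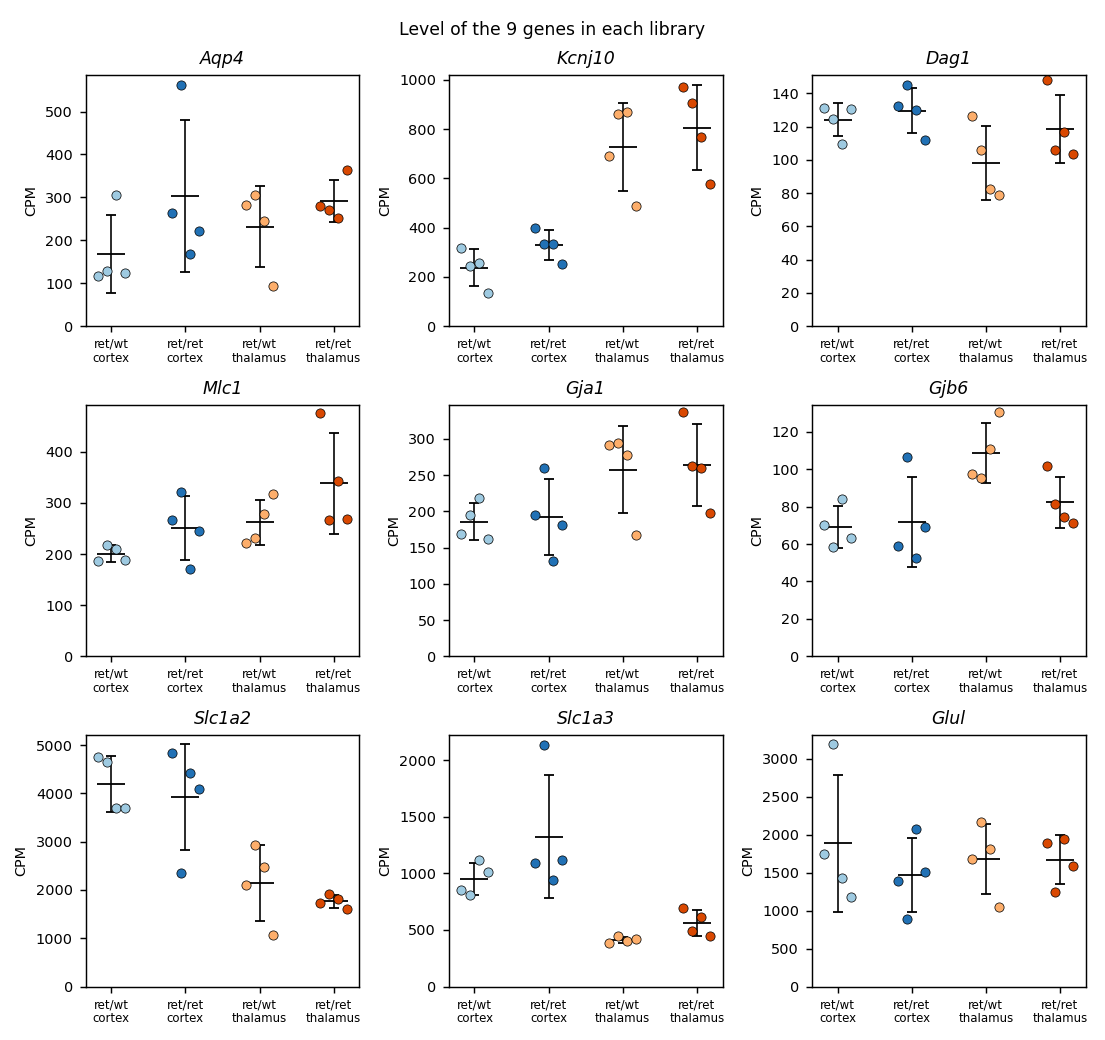
Level of the 9 genes in each library, in CPM on a linear axis that starts at 0; points are the 4 libraries of a group in the order of their replicate numbers, long lines are means and whiskers are 1 SD. Kcnj10 lies at 133 to 399 CPM in cortex and 487 to 969 CPM in thalamus, and Slc1a3 at 810 CPM or more in every cortex library and 694 CPM or less in every thalamus library.

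Cortex and thalamus of the same genotype were compared first, since the study set calcification-prone against calcification-free tissue. Genes were tested with edgeR's quasi-likelihood test, and a gene was called at an adjusted p (Benjamini-Hochberg, over all genes tested) under 0.05. In ret/ret animals 3 of the 9 genes were called, 1 higher and 2 lower in thalamus, against 9.50% of the 14715 genes tested (4.10% higher, 5.40% lower). In ret/wt animals 3 of 9 were called, 2 higher and 1 lower, against 12.6% of 14442 genes (5.44% higher, 7.12% lower). Groups that did not overlap were found for 3 members in ret/ret, beside 17.5% of all genes, and for 5 in ret/wt, beside 19.9%. The median log2 fold change of the 9 genes was 0.19 in ret/ret and 0.40 in ret/wt, beside -0.02 and 0.03 for all genes tested.

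Among the endfoot genes, Kcnj10 differed most between the regions. In ret/wt animals it stood at 317, 245, 256 and 133 CPM in the cortex and at 692, 863, 867 and 487 CPM in the thalamus of replicates 1 to 4. Its ret/ret values were 399, 335, 335 and 252 CPM in cortex and 969, 906, 770 and 577 CPM in thalamus. The lowest thalamus library thus lay above the highest cortex library in each genotype, and the gene was higher in the thalamus of 8 of 8 animals. The log2 fold change was 1.62 ± 0.29 (SE) in ret/wt and 1.29 ± 0.21 (SE) in ret/ret, with adjusted p = 0.0049 and adjusted p = 0.0077 by edgeR's quasi-likelihood test. Both calls held in each of the 15 alternatives run, with adjusted p up to 0.0301 and 0.0277. Within animals the thalamus to cortex difference was even among ret/ret animals, 1.20 to 1.43 on the log2 scale, and ran from 1.12 to 1.87 among ret/wt animals.

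Aqp4, whose product shares the endfoot membrane with Kir4.1, showed no such separation. It was at 117, 128, 305 and 123 CPM in ret/wt cortex and at 282, 305, 246 and 94 CPM in ret/wt thalamus. The ret/ret libraries held 264, 562, 167 and 222 CPM in cortex and 279, 270, 252 and 365 CPM in thalamus. The highest cortex library of each genotype, ret/wt replicate 3 and ret/ret replicate 2, was the library with the high sum of cerebellum and Bergmann glia genes; the part of that tissue in these levels was not tested. The log2 fold change, thalamus over cortex, was 0.46 ± 0.40 (SE) in ret/wt and -0.06 ± 0.35 (SE) in ret/ret, with edgeR adjusted p = 0.501 and 0.937. Without both animals it was 0.89 in ret/wt and 0.47 in ret/ret, so that the sign in ret/ret turned, and neither value was called.

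Dag1, the laminin receptor of the endfoot, varied least among the endfoot genes in both cortex groups, as SD relative to the mean, but not in the thalamus groups. Its levels were 110 to 131 CPM in ret/wt cortex, 112 to 145 CPM in ret/ret cortex, 78.6 to 126 CPM in ret/wt thalamus and 103 to 148 CPM in ret/ret thalamus. The log2 fold change between regions was -0.33 ± 0.19 (SE) in ret/wt and -0.13 ± 0.16 (SE) in ret/ret, and neither passed the test. Mlc1 was at 186 to 218 CPM in ret/wt cortex and 222 to 317 CPM in ret/wt thalamus, ranges that did not overlap, yet its edgeR adjusted p was 0.194 at a log2 fold change of 0.40 ± 0.19 (SE). Mlc1 in ret/ret animals was at 170 to 322 CPM in cortex and 267 to 476 CPM in thalamus, and the ranges overlapped. Its ret/ret log2 fold change was 0.44 ± 0.25 (SE) and, without both animals, 0.69, and neither was called.

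The connexin genes leaned to the thalamus with smaller differences. Gjb6 stood at 70.4, 58.2, 84.1 and 63.3 CPM in ret/wt cortex and at 97.4, 95.4, 110.8 and 130.3 CPM in ret/wt thalamus. Among ret/ret animals it stood at 59.2, 106.6, 52.3 and 69.2 CPM in cortex and at 101.7, 81.3, 74.6 and 71.5 CPM in thalamus. The ret/wt groups did not overlap, and the ret/ret groups did. The ret/wt difference was 0.67 ± 0.19 (SE) on the log2 scale, with adjusted p = 0.0457 by edgeR's quasi-likelihood test, and it was called in 4 of the 15 alternatives. With each animal as a block its adjusted p was 0.0776, and without both animals 0.0684. In ret/ret the difference was 0.20 ± 0.23 (SE), edgeR adjusted p = 0.627. Without ret/ret cortex replicate 2, the highest of its group and the library with the highest sum of cerebellum genes, it was 0.48 ± 0.18 (SE), with unadjusted p = 0.028 and adjusted p = 0.120 by edgeR's quasi-likelihood test. Without both animals it was 0.47. The difference between the 2 genotypes was itself -0.46 ± 0.30 (SE), unadjusted p = 0.147 by edgeR's quasi-likelihood test, so the regional difference of Gjb6 was not shown to differ between genotypes, and it was -0.20 without that library.

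Gja1, the main astrocyte connexin gene, was higher in the thalamus than in the cortex of 8 of 8 animals, but the groups overlapped in both genotypes. Within animals its log2 difference ran from 0.053 to 0.79 in ret/wt and from 0.0094 to 0.98 in ret/ret, so that its smallest rises were near 0. Its level was 162 to 218 CPM in ret/wt cortex and 168 to 294 CPM in ret/wt thalamus, and 132 to 260 CPM in ret/ret cortex and 198 to 337 CPM in ret/ret thalamus. The log2 fold changes were 0.48 ± 0.21 (SE) and 0.46 ± 0.24 (SE), with edgeR adjusted p = 0.178 and 0.244. Without ret/wt thalamus replicate 4, the lowest of its group, the ret/wt value was 0.63 and its adjusted p 0.0329.

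The glutamate transporters went the other way. Slc1a3 stood at 851, 810, 1115 and 1010 CPM in ret/wt cortex and at 386, 445, 406 and 416 CPM in ret/wt thalamus. The ret/ret values were 1094, 2135, 945 and 1122 CPM in cortex and 694, 493, 612 and 449 CPM in thalamus. No thalamus library reached the lowest cortex library in either genotype. The log2 fold change was -1.18 ± 0.18 (SE) in ret/wt, with adjusted p = 0.0022 by edgeR's quasi-likelihood test, and this call held in 15 of 15 alternatives. In ret/ret it was -1.23 ± 0.28 (SE), with adjusted p = 0.0272, and the call held in 11 of 15. With each animal as a block the ret/ret adjusted p was 0.0627, and without thalamus replicate 2, 3 or 4 it was 0.0543, 0.0740 and 0.0834. The highest value, in ret/ret cortex replicate 2, came with the highest sum of cerebellum and Bergmann glia genes, cells known to carry much Slc1a3; the part of that tissue in this value was not tested. Without both animals the log2 fold change was -0.83 in ret/ret, adjusted p = 0.0296, and -1.09 in ret/wt, adjusted p = 0.0140.

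Slc1a2, the transporter gene of most forebrain glutamate uptake, was likewise lower in thalamus. It stood at 4742, 4639, 3694 and 3702 CPM in ret/wt cortex and at 2104, 2929, 2467 and 1066 CPM in ret/wt thalamus. In ret/ret animals it stood at 4826, 2345, 4412 and 4097 CPM in cortex and at 1735, 1917, 1820 and 1602 CPM in thalamus. Each thalamus group lay below its cortex group, and the lowest cortex value was that of ret/ret replicate 2, the library in which Slc1a3 was highest. In ret/ret the log2 fold change was -1.14 ± 0.23 (SE), with adjusted p = 0.0174 by edgeR's quasi-likelihood test, and the call held in 10 of 15 alternatives. With each animal as a block its adjusted p was 0.0523, and leaving out thalamus replicate 1, 3 or 4 or cortex replicate 3 gave 0.0527 to 0.0593. The ret/wt difference was -0.96 ± 0.28 (SE) on the log2 scale, at an edgeR adjusted p of 0.0505, so that it was not called, and 6 of 15 alternatives called it, among them the animal block with 0.0448. Without both animals the values were -1.36 in ret/ret, adjusted p = 0.0030, and -1.10 in ret/wt, adjusted p = 0.0861, by edgeR's quasi-likelihood test. The gene was lower in the thalamus of 8 of 8 animals.

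Glul had no regional direction. It ranged from 1178 to 3197 CPM in ret/wt cortex, 1051 to 2169 CPM in ret/wt thalamus, 896 to 2073 CPM in ret/ret cortex and 1246 to 1940 CPM in ret/ret thalamus. The log2 fold change between regions was -0.16 ± 0.33 (SE) in ret/wt and 0.19 ± 0.26 (SE) in ret/ret, and neither was called. Its levels thus overlapped between regions in which both transporter genes had groups that did not.

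**Figure D2:**
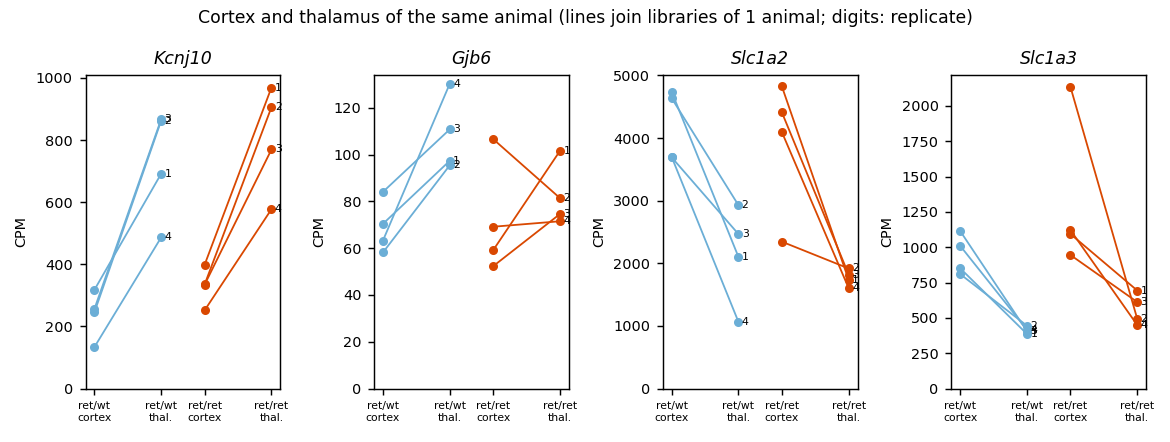
Kcnj10, Gjb6, Slc1a2 and Slc1a3 in the cortex and thalamus of each animal, in CPM on a linear axis from 0; a line joins the libraries of 1 animal and the digit is its replicate number. Kcnj10 rises from cortex to thalamus along all 8 lines and both transporters fall along all 8, while Gjb6 rises along 4 of 4 ret/wt and 3 of 4 ret/ret lines.

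Kcnj10 and Slc1a3 were called in opposite directions in both genotypes, so the 250 bases before their transcription starts are shown, from the RefSeq promoter table on GRCm38.p6, in which 8 of the 9 genes, all but Aqp4, were matched. Capitals mark matches, on either strand, to a GC box, spelled GGGCGG, to the CCAAT box of those letters, or to a TATA box, spelled TATAAA. The half-site of NFI factors, spelled TTGGCA, and the core of SOX factors, spelled ACAATG, were searched as well. The Kcnj10 window is chr1:172340960-172341209 on the plus strand, and the Slc1a3 window chr15:8710808-8711057 on the minus strand, both printed 5′ to 3′ along the gene and ending at the base before the start.
Kcnj10: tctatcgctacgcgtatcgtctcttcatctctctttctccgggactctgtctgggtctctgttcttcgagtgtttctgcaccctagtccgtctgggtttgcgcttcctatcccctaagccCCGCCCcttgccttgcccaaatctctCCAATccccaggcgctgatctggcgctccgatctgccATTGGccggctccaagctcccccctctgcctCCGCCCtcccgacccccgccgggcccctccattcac
Slc1a3: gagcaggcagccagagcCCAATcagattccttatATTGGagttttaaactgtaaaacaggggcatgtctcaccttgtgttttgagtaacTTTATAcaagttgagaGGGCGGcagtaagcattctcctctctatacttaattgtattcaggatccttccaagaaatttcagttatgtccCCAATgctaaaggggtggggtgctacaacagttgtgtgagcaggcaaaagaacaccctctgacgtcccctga
The Kcnj10 window was 62.0% G and C with 17 CpG dinucleotides and held 2 GC boxes and 2 CCAAT boxes. The Slc1a3 window was 44.8% G and C with 2 CpG dinucleotides and held 1 GC box, 3 CCAAT boxes and 1 TATA box, 156 to 161 bases before the start. Over 32851 RefSeq windows of the same length the median was 52.4% G and C. A GC box was found in 32.7% of them, a CCAAT box in 33.8%, a TATA box in 12.4%, the NFI half-site in 12.3% and the SOX core in 10.7%. The NFI half-site and the SOX core had no match in either of the printed windows. These matches are a description of letters, and no binding was measured.

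The thalamus was compared next between ret/ret and ret/wt mice, to set tissue with calcifications beside the same region without them. None of the 9 genes was called, against 0% of the 14767 genes tested by edgeR's quasi-likelihood test. An unadjusted p under 0.05 was found for 581 genes, 3.93%, and DESeq2 called 37 genes, 0 of them members. Slc1a3 was the 1 member with an unadjusted p under 0.05. Its 4 ret/ret thalamus libraries, at 449 to 694 CPM, all lay above the 4 ret/wt libraries at 386 to 445 CPM, as was the case for 1.70% of all genes. Its log2 fold change was 0.48 ± 0.18 (SE), with unadjusted p = 0.027 and adjusted p = 1.0 by edgeR's quasi-likelihood test, and over the alternatives the adjusted p stayed at 0.507 or above.

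The other 8 members overlapped between the genotypes in thalamus. Mlc1 had a log2 fold change of 0.40 ± 0.24 (SE), Aqp4 of 0.37 ± 0.31 (SE), Dag1 of 0.31 ± 0.20 (SE) and Kcnj10 of 0.18 ± 0.23 (SE), ret/ret over ret/wt. These 4 values lay within 2 SE of 0 and moved with single libraries. Without ret/wt thalamus replicate 4, Aqp4 was at 0.12 and Kcnj10 at 0.047, and without ret/ret thalamus replicate 1, Kcnj10 was at 0.074 and Mlc1 and Dag1 were both at 0.17. Gjb6 had the lowest value, -0.37 ± 0.19 (SE), with 71.5 to 101.7 CPM in ret/ret and 95.4 to 130.3 CPM in ret/wt thalamus. Gja1 was at 0.08 ± 0.23 (SE), Slc1a2 at -0.24 ± 0.27 (SE) and Glul at 0.03 ± 0.24 (SE). Markers of other cell types were read in the same libraries, and 0 of them were called by edgeR's quasi-likelihood test. Of the 10 microglia markers, 10 were on the higher side and 7 of these had an unadjusted p under 0.05, with a sum of 477 to 650 CPM in ret/ret and 316 to 381 CPM in ret/wt. Of the 10 pericyte markers, 10 were on the lower side and 3 had an unadjusted p under 0.05, with a sum of 57.6 to 220.4 CPM in ret/ret and 106 to 329 CPM in ret/wt. The 9 endothelial markers (203 to 459.5 against 217 to 283 CPM) and the 8 ependymal markers (37.9 to 147 against 23.7 to 64.7 CPM) were all on the higher side. The part of these cells in the members' values was not tested.

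In cortex, which had no calcifications, 0 of the 9 genes were called between genotypes, against 0.0210% of the 14288 genes tested, which were 3 genes by edgeR's quasi-likelihood test. No member had an unadjusted p under 0.05, beside 3.77% of all genes, and DESeq2 called 0 of the 9. No member had groups that did not overlap, as 2.32% of all genes did. Aqp4 had the largest difference, 0.87 ± 0.43 (SE) on the log2 scale, with unadjusted p = 0.071 by edgeR's quasi-likelihood test, and it ran from 0.39 without ret/ret replicate 2 to 1.31 without ret/wt replicate 3. These are the cortex libraries with the high sums of cerebellum and Bergmann glia genes. Without both animals the value was 0.84 ± 0.20 (SE), with unadjusted p = 0.0032 and adjusted p = 0.842 by edgeR's quasi-likelihood test. The 3 remaining ret/ret libraries, at 167 to 264 CPM, then lay above the 3 ret/wt libraries, at 117 to 128 CPM. The share of all genes so separated in 3 against 3 libraries was not counted, and an exact permutation test of that size cannot give a p under 0.1. Slc1a3 had a log2 fold change of 0.50 ± 0.27 (SE), which was 0.26 ± 0.18 (SE) without both animals, and Kcnj10 one of 0.49 ± 0.26 (SE), which was 0.52 ± 0.32 (SE) without them. Without ret/wt cortex replicate 4, the lowest of its group for Kcnj10 and the library with the high choroid plexus sum, the Kcnj10 value was 0.30 ± 0.21 (SE). Mlc1 was at 0.34 ± 0.20 (SE), Glul at -0.35 ± 0.35 (SE), and Dag1, Gja1, Gjb6 and Slc1a2 between -0.08 and 0.08. The edgeR adjusted p was 1.0 for all 9. Of the 24 astrocyte markers in cortex 17 were on the higher side in ret/ret, 0 were called and 5 had an unadjusted p under 0.05, with a median log2 fold change of 0.27. Of 8 pericyte markers tested, 6 were on the lower side and Rgs5, a regulator of G protein signalling that was named after its value was seen, was called lower, and the list summed to 48.8 to 121 CPM in ret/ret and 106 to 158 CPM in ret/wt cortex. Of 9 endothelial markers 7 were on the higher side, with 0 called, 3 at an unadjusted p under 0.05 and a sum of 187 to 396 against 145 to 222 CPM. The 5 choroid plexus markers tested were all on the lower side, with 0 called, and the highest sum was that of ret/wt cortex replicate 4. The part of these cells in the members' values was not tested.

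**Figure D3:**
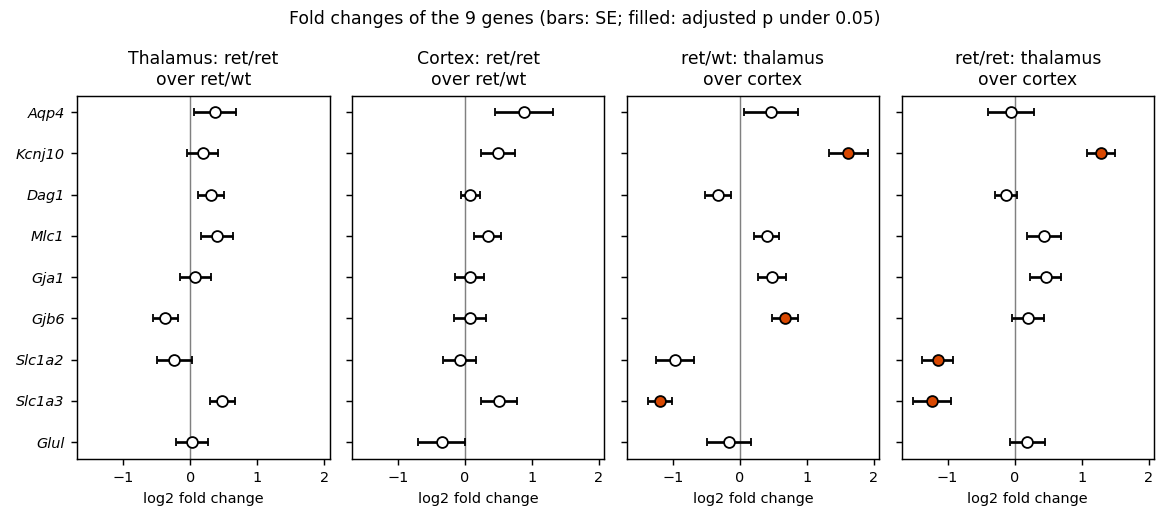
Log2 fold changes of the 9 genes in the 4 comparisons of groups; points are estimates of edgeR's quasi-likelihood fit, bars are 1 SE, and filled points have an adjusted p under 0.05. Filled points are found in the region comparisons alone, 3 in ret/wt and 3 in ret/ret.

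Whether the genotype difference itself differed between thalamus and cortex was tested on all 16 libraries. None of the 9 genes was called, against 0% of 15286 genes by edgeR's quasi-likelihood test; 245 genes, 1.60%, had an unadjusted p under 0.05, none of them a member, and DESeq2 called 4. The largest values, thalamus minus cortex, were -0.52 ± 0.58 (SE) for Aqp4 and -0.46 ± 0.30 (SE) for Gjb6 on the log2 scale. Without ret/ret cortex replicate 2 they were -0.035 and -0.20, and without ret/wt cortex replicate 3 they were -0.98 and -0.57. Gja1, at -0.01 ± 0.32 (SE), and Slc1a3, at -0.04 ± 0.33 (SE), had nearly the same regional difference in both genotypes, though each with an error that leaves room for changes of either sign.

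Per length of the longest annotated transcript, the order of the levels differed between the regions. Glul was highest in all 4 groups, at 676 ± 324 CPM per kilobase in ret/wt cortex (n = 4, SD), 525 ± 173 in ret/ret cortex (n = 4, SD), 601 ± 167 in ret/wt thalamus (n = 4, SD) and 597 ± 115 in ret/ret thalamus (n = 4, SD). Slc1a2 came next in every group, at 362 and 338 CPM per kilobase in ret/wt and ret/ret cortex and 185 and 153 in thalamus. In ret/ret cortex the ranges of Glul and Slc1a2 overlapped, and in the other 3 groups they did not. The next place was taken by Slc1a3 in cortex, at 213 and 299 CPM per kilobase, and by Kcnj10 in thalamus, at 134 and 149. In both cortex groups the range of Slc1a3 lay wholly above that of Mlc1, the gene after it. In thalamus Slc1a2, Kcnj10, Mlc1 and Slc1a3 formed a run of neighbours, at 93.1 to 185 CPM per kilobase, whose ranges overlapped one after the other.

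Below these, Gja1, Kcnj10, Aqp4 and Gjb6 lay between 32.8 and 61.0 CPM per kilobase in cortex, with overlapping neighbours. Dag1 was lowest in all 4 groups, at 17.3 to 22.9 CPM per kilobase, and its range was clear of the next gene in ret/wt cortex and ret/ret thalamus. With all exons of a gene merged as its length, a setting chosen after the data were seen, Glul stayed highest in every group, and Gja1, whose merged exons are much longer than its longest transcript, fell to 18.1 and 18.7 CPM per kilobase and took the last place in cortex. In ret/ret thalamus Kcnj10, at 149 CPM per kilobase, then came before Slc1a2, at 135.

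Ratios of 2 members within a library do not depend on scaling. The ratio of Slc1a2 to Slc1a3 counts had a geometric mean of 4.44 in ret/wt cortex, 3.01 in ret/ret cortex, 4.87 in ret/wt thalamus and 3.19 in ret/ret thalamus. It was 1.10 in ret/ret cortex replicate 2 and 2.50 or more in every other library, in counts that are not adjusted for transcript length. That library was the one with 4692 CPM of cerebellum and Bergmann glia genes, and per kilobase of the longest transcript it held 481 CPM of Slc1a3 and 202 CPM of Slc1a2. Between genotypes its log2 difference was -0.61 ± 0.34 (SE) in thalamus and -0.56 ± 0.53 (SE) in cortex, with exact permutation p = 0.114 and 0.4. The ratio of Aqp4 to Kcnj10 was lower in thalamus by 2.28-fold in ret/wt and 2.29-fold in ret/ret animals, each with exact permutation p = 0.0571 (two-sided) when the 8 libraries are taken as independent. Within animals the ratio was lower in the thalamus of 4 of 4 ret/ret and 3 of 4 ret/wt animals, with exact sign-flip p = 0.125 and 0.25, where 4 pairs cannot give a p under 0.125. The highest cortex ratios, 1.19 and 1.68, were those of the 2 libraries with high cerebellum gene sums. Without both animals the log2 difference went from -1.19 to -0.89 in ret/wt and from -1.19 to -0.76 in ret/ret, each with exact permutation p = 0.2. The ratio of Gja1 to Gjb6 had geometric means of 2.70 in both cortex groups, 2.34 in ret/wt thalamus and 3.18 in ret/ret thalamus. Over the 12 tests the smallest adjusted p was 0.343, and 4 against 4 libraries cannot give a p under 0.0286.

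The partners of the endfoot genes were read from a list of 19 dystrophin complex and laminin genes. Between regions 1 was called higher and 1 lower in thalamus in each genotype by edgeR's quasi-likelihood test. This was near the share of all genes tested that were called, 12.6% in ret/wt and 9.50% in ret/ret. The median log2 fold change of the list was 0.17 in ret/wt and 0.015 in ret/ret. Sspn, which encodes sarcospan of the dystrophin complex, was higher, by 1.11 ± 0.22 (SE) in ret/wt and 0.91 ± 0.20 (SE) in ret/ret on the log2 scale. Sntb2, a syntrophin, was lower by -1.31 ± 0.26 (SE) and -1.20 ± 0.23 (SE). Sntb2 was at 34.3 ± 6.94 CPM in ret/wt cortex (n = 4, SD) and 13.7 ± 4.20 CPM in ret/wt thalamus (n = 4, SD). These 4 calls also held with each animal as a block.

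Of 14 membrane partners of MLC1 and Kir4.1, 2 were called higher and 1 lower in ret/wt thalamus, and 0 in ret/ret, where 4 had an unadjusted p under 0.05 by edgeR's quasi-likelihood test. Over all genes tested the called shares were 12.6% in ret/wt and 9.50% in ret/ret. An unadjusted p under 0.05 was found in ret/ret for 3926 of the 14715 genes tested. The chloride cotransporter gene Slc12a2 was higher in ret/wt thalamus by 1.02 ± 0.26 (SE) and Hepacam, which encodes the adhesion protein GlialCAM that brings MLC1 to cell contacts, by 0.61 ± 0.16 (SE). Ezr, which encodes the actin linker ezrin, was lower by -1.65 ± 0.21 (SE), at 20.9 ± 3.64 CPM in thalamus (n = 4, SD) and 66.4 ± 10.2 CPM in cortex (n = 4, SD). In ret/ret animals the smallest p-values were those of Kcnj16, whose product forms channels with Kir4.1, at 0.67 ± 0.19 (SE), and Hepacam at 0.68 ± 0.20 (SE), with edgeR adjusted p = 0.0564 and 0.0640. With each animal as a block Hepacam was lost in ret/wt, adjusted p = 0.0885, and Slc12a2 was gained in ret/ret. The median of the 14 genes was 0.55 in ret/wt and 0.44 in ret/ret, on the same side as Kcnj10 and Mlc1.

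Other gap junction genes had the largest regional differences near the members. Of 10 tested, 3 were called higher in thalamus in ret/wt and 1 in ret/ret, with 0 lower. Over all genes tested 5.44% were called higher in ret/wt and 4.10% in ret/ret. Gjb1 encodes a connexin of oligodendrocytes, which docks with those of astrocytes, and was called in both, at 2.15 ± 0.35 (SE) in ret/wt and 2.01 ± 0.28 (SE) in ret/ret on the log2 scale. In ret/wt the neuronal connexin gene Gjd2 was higher by 1.57 ± 0.32 (SE) and the glial Gjc3 by 1.40 ± 0.25 (SE). All 4 calls held with each animal as a block. Oligodendrocyte markers stood at 1927 to 4857 CPM in cortex and 10194 to 17348 CPM in thalamus in sum, with 10 of 10 called higher in ret/wt and 9 of 10 in ret/ret. Their part in these connexin values was not tested.

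Of 15 other glutamate and glutamine genes, 0 were called in ret/wt, where 1 had an unadjusted p under 0.05, and 1 was called lower in ret/ret thalamus. Over all genes tested 12.6% were called in ret/wt, and 5.40% were called lower in ret/ret. An unadjusted p under 0.05 was found in ret/wt for 3904 of the 14442 genes tested. The median log2 fold change of the list was 0.04 in ret/wt and -0.04 in ret/ret. The called gene was Arl6ip5, which encodes a modulator of a glutamate transporter, at -0.58 ± 0.14 (SE), and this call was lost with each animal as a block, adjusted p = 0.0656 by edgeR's quasi-likelihood test. Neuron markers summed to 7142 to 10396 CPM in cortex and 4116 to 8049 CPM in thalamus, and their part in these values was not tested.

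**Figure D4:**
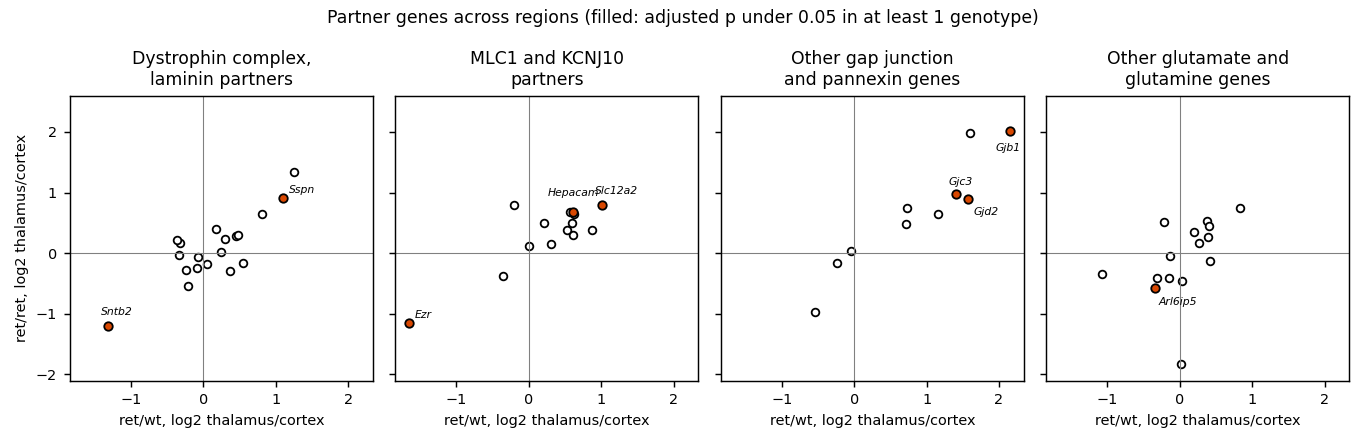
Log2 fold change of thalamus over cortex in ret/wt animals (horizontal axis) against ret/ret animals (vertical axis) for the 4 lists of partner genes; each point is 1 gene, and filled points have an adjusted p under 0.05 in at least 1 genotype. Sntb2 and Ezr lie at the lower left, and Gjb1 at the upper right near 2 on both axes.

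Between genotypes 0 genes of these 4 lists were called in thalamus, in cortex or in the interaction by edgeR's quasi-likelihood test. At an unadjusted p under 0.05 there were 1, 0, 0 and 3 genes in thalamus and 1, 1, 0 and 1 in cortex, in the order of the lists above. Of all genes tested 3.93% were under that p in thalamus and 3.77% in cortex. Of the 15 other glutamate and glutamine genes, 4 had a positive log2 fold change, ret/ret over ret/wt, in thalamus and 7 in cortex. The medians of that list were -0.14 and -0.04, beside -0.02 and 0.01 for all genes tested. In thalamus the smallest p-values belonged, in this order, to Gpt2, Sspn and the glutamine transporter gene Slc38a3. Their log2 fold changes were 0.62 ± 0.18 (SE), 0.65 ± 0.20 (SE) and 0.66 ± 0.20 (SE). In cortex they belonged to Sspn, with 0.83 ± 0.22 (SE), and to Slc38a3, with 0.59 ± 0.21 (SE). Sspn was at 39.2 ± 8.36 CPM in ret/ret (n = 4, SD) and 25.6 ± 1.78 CPM in ret/wt thalamus (n = 4, SD), without overlap. Gpt2, an alanine transaminase that yields glutamate, was at 100.1 ± 14.8 CPM in ret/ret (n = 4, SD) and 66.2 ± 8.77 CPM in ret/wt thalamus (n = 4, SD), also without overlap. Gpr37l1, which encodes an astrocyte receptor, was at 0.52 ± 0.25 (SE) in thalamus and 0.82 ± 0.35 (SE) in cortex. All adjusted p-values of the genes named in this comparison were 0.728 or above by edgeR's quasi-likelihood test.

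Astrocyte markers outside the 9 genes also differed between regions. Of the 24, 9 were called higher in ret/wt thalamus and 6 in ret/ret thalamus, with 0 lower, beside 5.44% and 4.10% of all genes tested. The median log2 fold change of the 24 was 0.59 and 0.55. With each animal as a block 9 and 3 were called higher, and 1, Mfge8, lower in ret/wt. Slc6a11, which encodes an astrocyte GABA transporter and was named after its value was seen, had the largest difference, 2.62 ± 0.25 (SE) in ret/wt and 2.86 ± 0.34 (SE) in ret/ret. The regional direction of Slc1a2 and Slc1a3 was thus opposite to that of the median astrocyte marker, and Kcnj10 lay on the side of that median. Gfap, Aldh1l1 and Sox9 were not called between regions in either genotype. The 15 reactive astrocyte genes, of which 11 to 13 were tested, had 0 called in each of the 4 comparisons of groups. Of all genes tested 12.6% and 9.50% were called between regions in ret/wt and ret/ret, and 0% and 0.0210% between genotypes in thalamus and cortex. Between genotypes 9 of 12 reactive genes were on the higher side in ret/ret in each region. Their median log2 fold change was 0.28 in thalamus and 0.43 in cortex, and 1 and 2 had an unadjusted p under 0.05 by edgeR's quasi-likelihood test. The sum of the list was 121 to 149 CPM in ret/wt cortex, 124 to 318 CPM in ret/ret cortex, 86.9 to 366 CPM in ret/wt thalamus and 178 to 539 CPM in ret/ret thalamus.

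**Figure D5:**
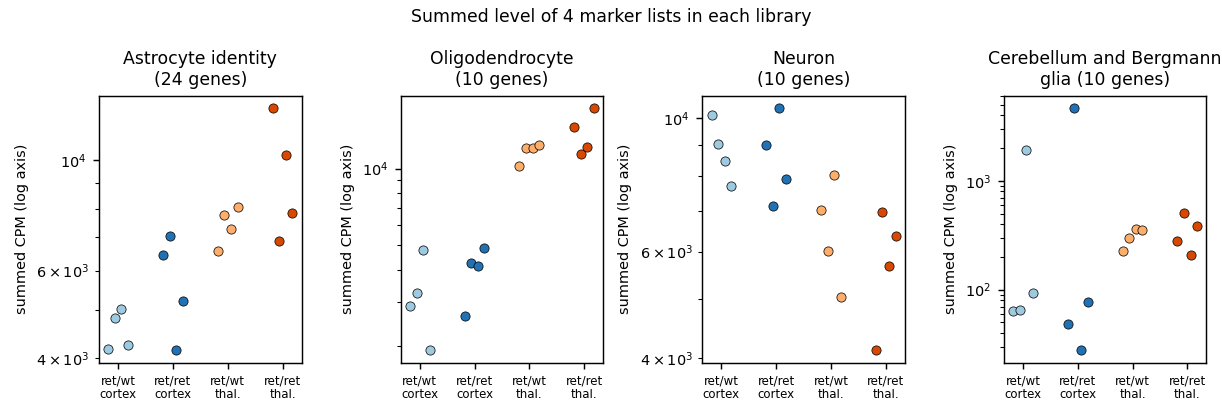
Summed CPM of 4 marker lists in each library, on log axes; points are libraries, in replicate order within a group. Oligodendrocyte sums are at 10194 CPM or more in every thalamus library and 4857 CPM or less in every cortex library, and 2 cortex libraries stand out in the cerebellum and Bergmann glia list at 1905 and 4692 CPM.

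The 9 genes did not move as 1 block from library to library. Over the 16 libraries the 36 pairs had a median Pearson r of 0.08 in log2 CPM, and 20 pairs were positive. The highest was 0.73 for Kcnj10 and Gja1 and the lowest -0.72 for Gjb6 and Slc1a2. With the mean of each group subtracted the median was 0.23, 29 pairs were positive, and the ends were 0.83 for Gjb6 and Slc1a3 and -0.68 for Gjb6 and Slc1a2. The points share 8 animals, and library content such as the cerebellum genes enters them, so these values are a description.

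The genes whose pattern was most like the mean of the 9, each set to the same mean and spread over the 16 libraries, were Rfx4 (Pearson r = 0.89), Ankrd40 (0.88) and Msi1 (0.85), followed by Gna13, an unnamed gene (ENSMUSG00000111527), Stk10, Wipi1, Appl2, Gm42742 and Ednrb at 0.80 or above, among 10380 genes with a mean log2 CPM of at least 3. With group means subtracted Rfx4 again came first (0.93), before Gprc5b (0.92) and S1pr1 (0.88), and Atp1b2, a sodium pump subunit from the list of partners of MLC1 and Kir4.1, was the tenth (0.85).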

How the data were processed

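The deposited values were expected counts per Ensembl gene for 21804 genes in 16 columns, 1 per library. The submitters' processing notes name kallisto 0.44.0 and GRCm38.p6; the annotation and the step from transcripts to genes are not given in the sources used here. Per the labels, libraries were polyA-selected and stranded. Counts were rounded to whole numbers. Symbols came from GENCODE M21 by identifier (21581 genes, 99.0%).

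A comparison of 2 groups used the 8 libraries of those groups and the interaction all 16, in edgeR 4.0.16 under R 4.3.3 (filterByExpr at min.count 10 and min.total.count 15, TMM, quasi-likelihood F-test, Benjamini-Hochberg over all genes tested). All 9 genes passed the filter in the 5 fits. Standard errors came from the F statistic. CPM of single libraries were scaled with TMM over all 16. Ratios were compared by two-sided exact permutation tests in Python 3.11.15 with scipy 1.17.1. Likeness used log2 CPM with a prior count of 1. The fit was tested on simulated data.

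Animal identifiers in the labels pair cortex and thalamus of 1 animal; equal numbers across genotypes are different animals. The mean correlation of residuals between paired libraries was 0.088 in ret/ret and 0.061 in ret/wt over 15286 genes. The main design had no block, so the region and interaction tests took the 2 libraries of an animal as independent. The animal block was an alternative. P-values between genotypes within a region measure the spread between animals. Those of the region and interaction tests measure the spread between libraries, not that of the difference within animals.

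The alternatives were DESeq2 1.42.0, library size alone, no filter, a mean CPM of at least 1, a replicate block, 1 fit of all 16 libraries, leaving out each library, leaving out the animals ret/wt 3 and ret/ret 2, and, added after the data were seen, merged exons as gene length. The 9 genes, the lists and the alternatives were chosen with earlier results of these data known. Partner genes were named where their adjusted p was under 0.05 (at most 4 per direction, mean log2 CPM of at least 1), and otherwise the 2 with the smallest p, not all of which are given. Of 194 genes written in the lists, 4 (Slc38a2, Pc, Olig2 and Erg) were not analysed here, and some further partner genes are not reported here.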

Additional observations from a re-analysis of the deposited data

Results flagged for a closer look

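Of 48 sets of 4 values (9 genes and 3 ratios in 4 groups), 4 held a library far from the other 3, where chance gives about 5%. In each the gap to the nearest library, over the whole range, exceeded Dixon's critical value for 4 samples.

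Aqp4 in ret/wt cortex replicate 3 was at 305 CPM, and the other 3 libraries were at 117 to 128 CPM. Slc1a3 in ret/ret cortex replicate 2 was at 2135 CPM, above the 945 to 1122 CPM of its group. Both libraries also held the high sums of cerebellum and Bergmann glia genes given above, and the part of that tissue was not tested. Gja1 in ret/wt thalamus replicate 4 was at 168 CPM, below 278 to 294 CPM in the rest of the group. The same library was lowest of its group for Aqp4, Kcnj10, Dag1, Slc1a2 and Glul, and highest for Mlc1 and Gjb6. The ratio of Aqp4 to Kcnj10 counts in ret/ret thalamus replicate 4 was 0.632, and 0.288 to 0.327 in the other 3 libraries.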

How the results depend on the processing

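Among called members, Kcnj10 in both genotypes and Slc1a3 in ret/wt held in all 15 alternatives, while Slc1a2 and Slc1a3 in ret/ret and Gjb6 in ret/wt did not. With the replicate block 1 member instead of 3 was called between regions in ret/ret, and leaving out 1 library gave 1 to 3 there and 2 to 4 in ret/wt. Blocks on numbers across genotypes, which are different animals, called 0 genes in cortex. Over all genes, DESeq2 called 37 in thalamus and 38 in cortex by genotype, 2591 between regions in ret/ret and 4 in the interaction; 1 fit of all 16 libraries called 3 in thalamus and 7 in cortex. Without the animals ret/wt 3 and ret/ret 2 the counts were 1 in cortex and 2564 between regions in ret/ret. Leaving out 1 library gave 0 to 2 genes in cortex, 627 to 2007 between regions in ret/ret and 1178 to 1797 in ret/wt. For these counts the cause was not tested.

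Signs turned only for members that were not called. In log2 terms, without both animals cortex values were -0.035 for Dag1, -0.031 for Gja1, -0.072 for Gjb6 and 0.042 for Slc1a2, Aqp4 between regions in ret/ret was 0.47, and the interaction was 0.15 for Gja1 and 0.27 for Slc1a3. The replicate block gave 0.10 for Aqp4 between regions in ret/ret, and 0.029 for Gja1 and 0.012 for Slc1a3 in the interaction. The 16-library fit gave -0.0092 for Glul in thalamus, and a mean CPM of at least 1 gave 0.0016 for Gja1 in the interaction. Leaving out 1 library moved Gja1 in thalamus over -0.075 to 0.19 and Glul over -0.13 to 0.17. In cortex it moved Gja1 over -0.12 to 0.21, Gjb6 over -0.18 to 0.20, Slc1a2 over -0.20 to 0.10 and Glul over -0.56 to 0.017. Between regions it moved Aqp4 in ret/ret over -0.23 to 0.45 and Glul in ret/wt over -0.32 to 0.22. In the interaction the ranges were -0.16 to 0.20 for Mlc1, -0.17 to 0.17 for Gja1, -0.40 to 0.021 for Slc1a2, -0.16 to 0.30 for Slc1a3 and -0.0080 to 0.57 for Glul.

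The log2 difference of Slc1a2 to Slc1a3 between regions was -0.50 in ret/ret and -0.11 in ret/wt without both animals, and -0.40 to 0.29 and -0.012 to 0.44 with 1 library left out. Leaving out 1 library moved Gja1 to Gjb6 over -0.10 to 0.10 in cortex and -0.34 to 0.077 between regions in ret/wt, and Aqp4 to Kcnj10 over -0.036 to 0.57 in cortex. With 4 animals a genotype, differences near 1 SE of these genes could not be told from 0. Larger ones, such as 0.48 ± 0.18 (SE) for Slc1a3 between genotypes in thalamus, were not called either.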
